A study of Sus scrofa with 6 samples.

Results

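The sense-overlapping lncRNAs of longissimus dorsi (LD) muscle were taken as the assembled transcripts whose name joined a host gene to the ending OT and which lay on chromosomes 1 to 18 or X. There were 3661 of them among 20078 assembled transcripts and 83119 deposited transcripts. The choice used names and positions and no measured value. The samples were LD muscle of 6 castrated male Laiwu pigs from 1 breeding company, each a separate animal with 1 library. Pigs LW63, LW70 and LW119 formed the S-H group, which had an extremely high intramuscular fat (IMF) content, and LW82, LW88 and LW90 formed the S-L group, with an extremely low one. All 6 shared breed, sex and castration, and no treatment and no age is given in the sources used here. Values of single pigs are listed in the order LW63, LW70, LW119 for S-H and LW82, LW88, LW90 for S-L. The values were FPKM, fragments counted per length of transcript and per mapped fragments of the library, so the number of reads behind a single value cannot be read from them.

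A sense-overlapping lncRNA is a non-coding transcript that, by its class, shares strand and part of its stretch of the genome with another gene, here called its host. Such transcripts can be retained introns, readthrough products or RNAs with their own promoter, and some are the precursors of microRNAs or small nucleolar RNAs. Because lncRNA and host can share exons, the fragments of a locus are divided among its transcripts by the assembly program, and a value belongs to a modelled transcript rather than to a separate molecule. IMF is the fat between and within the muscle fibres, much of it held in adipocytes.

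Markers of the labelled tissue were abundant in every library. Of 10 muscle fibre markers, 7 had a named gene, all above 0 in the 6 pigs, and their summed level was 6741 to 9958 FPKM in S-H and 7500.5 to 16172 FPKM in S-L. The 8 adipocyte markers summed to 519 to 1412 FPKM in S-H and 357 to 468 FPKM in S-L, without overlap (exact permutation p = 0.10, the smallest that 3 against 3 pigs can give). The sum of the 5 endothelial markers also did not overlap, at 100.5 to 123 FPKM in S-H and 59.3 to 96.3 FPKM in S-L (exact permutation p = 0.10). Taken singly, 2 of the 5 did not overlap. Summed fibroblast, macrophage, Schwann cell, lymphocyte and red blood cell markers overlapped between the groups. Satellite cell markers overlapped too, at 1.68 to 3.67 FPKM in S-H and 3.29 to 4.23 FPKM in S-L. By single marker, 2 of 5 lymphocyte markers and 1 muscle fibre marker were higher in S-H without overlap, and 1 satellite cell marker was higher in S-L. In bulk muscle, more cells of a type and more RNA per cell cannot be told apart.

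The lncRNAs lay over 2396 host genes. Most hosts, 1716 (71.6%), carried 1 lncRNA, 610 carried 2 to 4 and 70 carried 5 or more. Inside the span of the host lay 1569 lncRNAs (42.9%), 1573 (43.0%) ran past 1 of its ends and 519 (14.2%) covered the whole host. Their span on the genome, introns included, had a median of 29964 bp and ranged from 475 to 1286569 bp. Numbers per chromosome ran from 65 on chromosome 16 to 337 on chromosome 1. Per 100 annotated genes of the chromosome they ran from 9.03 on chromosome 17 to 16.6 on chromosome 14.

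The name of the host did not settle which gene an lncRNA lay over. Another annotated gene was overlapped by 1829 lncRNAs (49.96%). For 1105 (30.2%) the span of that other gene matched the span of the lncRNA better than the host did, by the shared length over the joined length. In these 1105 the better-matching gene was higher than the host in 697 (63.1%), with a median of 3.29 FPKM against 0.715 FPKM. These comparisons with a second gene were added after the data had been seen. Named small RNA genes lay under 134 lncRNAs, and microRNA genes under 33.

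Sense-overlapping lncRNAs were the most often detected and the highest of the 3 classes of assembled lncRNA. Per pig, 77.6% ± 3.02 (SD, n = 6) of them were above 0, against 66.1% ± 4.82 of 1614 antisense lncRNAs and 53.6% ± 3.84 of 1792 intergenic lncRNAs on the same chromosomes. Their median level was 0.226 ± 0.0569 FPKM, against 0.134 ± 0.0385 FPKM for antisense and 0.0433 ± 0.0281 FPKM for intergenic lncRNAs. The order was the same in 6 of 6 pigs for each of the 4 differences (exact sign-flip permutation p = 0.03125, the smallest 6 pigs can give, adjusted p = 0.0402 over 9 such tests). Among transcripts above 0 alone, the median levels were closer, at 0.338, 0.290 and 0.231 FPKM.

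**Figure D1:**
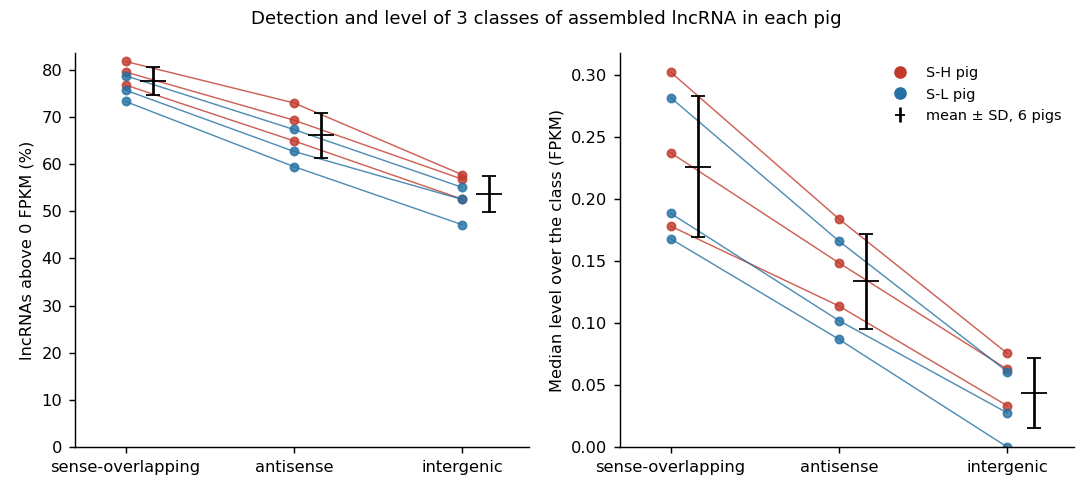
The left panel plots the percentage of each lncRNA class above 0 FPKM in each pig, and the right panel the median FPKM of the class in each pig, with 1 line per pig, S-H in red and S-L in blue, and black bars for the mean ± SD of 6 pigs. All 6 lines fall from sense-overlapping to antisense to intergenic lncRNAs in both panels.

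Most of the lncRNAs were low. The mean over the 6 pigs had a median of 0.252 FPKM, with the middle 50% between 0.113 and 0.506 FPKM. By the same measure, 41442 annotated transcripts with a symbol on these chromosomes had a median of 0.135 FPKM, so single lncRNAs were not lower than these. A mean of at least 0.1 FPKM was reached by 2856 lncRNAs (78.0%), of at least 1 FPKM by 406 (11.09%) and of at least 10 FPKM by 31. Those 31 carried 37.6% of the summed FPKM of all 3661. The coefficient of variation over the 6 pigs had a median of 65.8% among the 2856, 45.2% among those of at least 1 FPKM and 26.9% among those of at least 10 FPKM. Chromosome medians ran from 0.165 FPKM on X to 0.343 FPKM on chromosome 16.

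In all 6 pigs 1946 (53.2%) of the sense-overlapping lncRNAs were above 0, against 600 (37.2%) of the antisense lncRNAs and 38.1% of all deposited transcripts. A further 229 sense-overlapping lncRNAs were above 0 in 1 pig, from 25 in LW88 alone to 49 in LW82 alone, and 132 were listed at 0 in all 6. Above 0 were 2912, 2811 and 2994 lncRNAs in LW63, LW70 and LW119, and 2883, 2683 and 2771 in LW82, LW88 and LW90. The groups overlapped, with means of 2906 ± 91.7 in S-H and 2779 ± 100.2 in S-L (SD, n = 3 each, exact permutation p = 0.2). The median level was 0.240 ± 0.0622 FPKM in S-H and 0.213 ± 0.0608 FPKM in S-L (exact permutation p = 0.6), and the lowest adjusted p over 8 such tests was 0.4. In every S-H pig but no S-L pig 26 lncRNAs were above 0, which is 0.710% of them against 0.481% of all deposited transcripts and 0.634% of those above 0 in any pig. In every S-L pig but no S-H pig there were 11 (0.300%), against 0.248% and 0.327% of the same.

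The highest lncRNAs lay at genes for ribosomal proteins, the proteasome and a membrane protein of muscle. TBC1D8-OT1 (chr3:53276942-53295337) had 106.5, 154 and 149 FPKM in the S-H pigs and 96.0, 99.6 and 95.9 FPKM in the S-L pigs. The S-H pigs were all above the S-L pigs, with a log2 difference of 0.47 (limma, adjusted p = 0.848). Its host TBC1D8, a regulator of small GTPases of membrane traffic, had a mean of 3.60 FPKM, and it also overlapped RPL31, a protein of the large ribosomal subunit, at 14.1 FPKM. PSMD13-OT1 had 124, 131 and 89.3 FPKM in S-H and 118, 101 and 118 FPKM in S-L, so the groups overlapped. PSMD13, a subunit of the proteasome lid, was at 65.6 FPKM, a level of the same order as its lncRNA.

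TLCD1-OT1 and ENSSSCG00000041052-OT1 each lay over a ribosomal protein gene other than the gene that named them. TLCD1-OT1 had 115, 111 and 131 FPKM in S-H and 77.7, 96.1 and 89.8 FPKM in S-L, without overlap and with a log2 difference of 0.44 (limma, adjusted p = 0.848). TLCD1, a membrane protein that acts on the make-up of membrane lipids, was at 0.492 FPKM, while RPL23A, which the lncRNA matched over a share of 0.98 of the joined length, was at 1020.1 FPKM. ENSSSCG00000041052-OT1 had 90.2, 96.4 and 111 FPKM in S-H and 71.7, 77.2 and 71.5 FPKM in S-L, also without overlap (log2 difference 0.43, limma, adjusted p = 0.848). Its host was at 0.0507 FPKM and RPL19, matched over 0.98, at 348 FPKM. Their mean log2 ratios to the host were among the 3 highest of all the lncRNAs, 9.20 for ENSSSCG00000041052-OT1 and 7.52 for TLCD1-OT1.

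ENSSSCG00000031307-OT1 had 107, 34.5 and 163 FPKM in S-H and 70.4, 47.6 and 139 FPKM in S-L. The highest and the lowest pig were both S-H pigs. The host was at 0.0524 FPKM, a mean log2 ratio of 9.11, and SGCA, a sarcoglycan of the muscle fibre membrane, was at 5.82 FPKM and shared 0.56 of the joined length.

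Of the 31 lncRNAs of at least 10 FPKM, 24 overlapped a second gene, which matched better than the host in 16. Several in this range, named after their values were seen, lay over genes of muscle. FBXO40-OT1 had a mean of 12.3 FPKM and matched its host, a muscle ubiquitin ligase subunit at 22.3 FPKM, over 0.99. ADORA1-OT1 had 14.8 FPKM and lay over MYBPH, a myosin-binding protein at 62.6 FPKM. SEC24D-OT2 had 11.3 FPKM and lay over SYNPO2, an actin-binding protein of the Z-disc at 20.6 FPKM. Other high means came from 1 animal. TEX14-OT3, over U1 small nuclear RNA genes, had 124 FPKM in LW63, while the other 5 pigs were listed at 0.

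**Figure D2:**
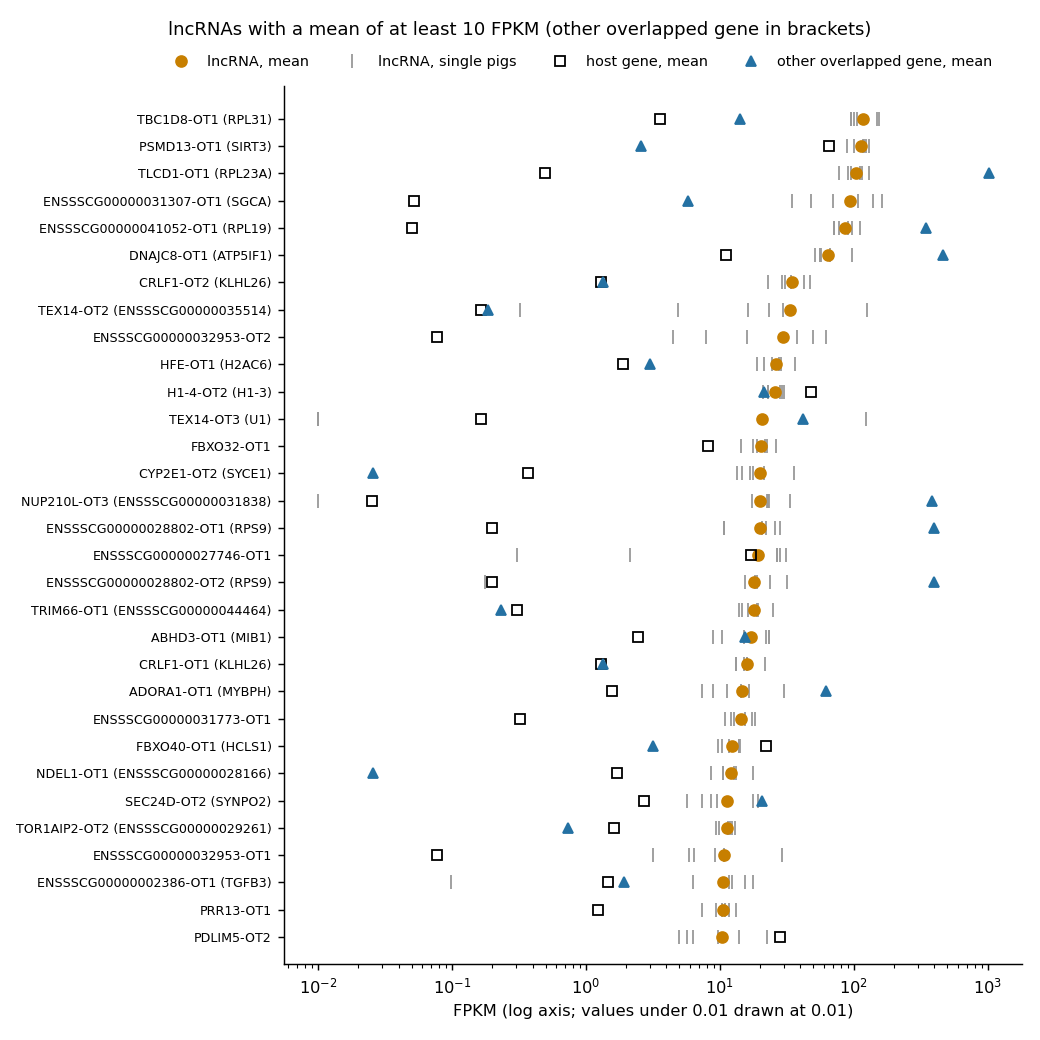
Each row is a sense-overlapping lncRNA with a mean of at least 10 FPKM, with its mean (orange), its value in each pig (grey ticks), the mean of its host (open square) and the mean of another overlapped gene (blue triangle), in FPKM on a log axis on which values under 0.01 are drawn at 0.01. The 3 open squares farthest below their lncRNA among the first 5 rows belong to ENSSSCG00000031307-OT1, ENSSSCG00000041052-OT1 and TLCD1-OT1.

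The 33 lncRNAs over a microRNA gene had a median level of 0.419 FPKM. Those named here were picked after their values were seen. ABHD3-OT1, over MIR133A-2, a microRNA gene of striated muscle, was the highest, at 22.3, 23.3 and 8.93 FPKM in S-H and 15.3, 10.3 and 23.2 FPKM in S-L. Both groups covered nearly the same range. ENSSSCG00000032383-OT5, over the genes of miR-143 and miR-145, microRNAs of smooth muscle, had 6.07, 4.06 and 3.89 FPKM in S-H and 3.89, 2.33 and 2.22 FPKM in S-L. The groups just overlapped, with a log2 difference of 0.73 (limma, adjusted p = 0.848). PPARGC1B-OT1, over the gene of miR-378, which lies within a coactivator gene of mitochondrial metabolism, had a mean of 0.953 FPKM.

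Relative to the host, a typical lncRNA was a small part of the locus. In 2409 pairs the lncRNA and the host each had a mean of at least 0.1 FPKM. The median of the mean log2 ratio of lncRNA to host was -3.02, with the middle 50% from -3.98 to -1.68, and in 232 pairs (9.63%) the lncRNA was above the host. The lncRNA carried a median 8.41% ± 1.5 (SD, n = 6) of the summed level of lncRNA and host, from 6.94% in LW88 to 10.7% in LW82. In the 898 antisense pairs the share was 6.80% ± 0.827, lower in 6 of 6 pigs (exact sign-flip permutation p = 0.03125). The median log2 ratio and the percentage of pairs above the host were lower in antisense pairs in 5 of 6 pigs (exact sign-flip permutation p = 0.0625 for each). The share of the sense-overlapping lncRNAs was 8.04% ± 1.26 in S-H and 8.77% ± 1.91 in S-L, and the groups overlapped.

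Over the 6 pigs, lncRNA and host varied in the same direction in most pairs. Pearson's r of log2(FPKM + 0.1) had a median of 0.34 over the 2409 pairs (middle 50% from -0.06 to 0.65) and of 0.27 over the 898 antisense pairs, each r over 6 pigs. It was over 0.8 in 283 pairs (11.7%; antisense 79, 8.80%) and below 0 in 691 (28.7%; antisense 287, 32.0%). These values are a description, because both members of a pair come from the same library and share its scaling. By position, the median r was 0.39 for lncRNAs inside the host, 0.30 for those past 1 end and 0.20 for those that covered it. It was 0.24 where a second gene was overlapped and 0.41 where none was. For 501 lncRNAs matched better by a second gene, with all 3 levels at least 0.1 FPKM, the median r was 0.17 to the host and 0.36 to the second gene, and it was higher to the second gene in 300.

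**Figure D3:**
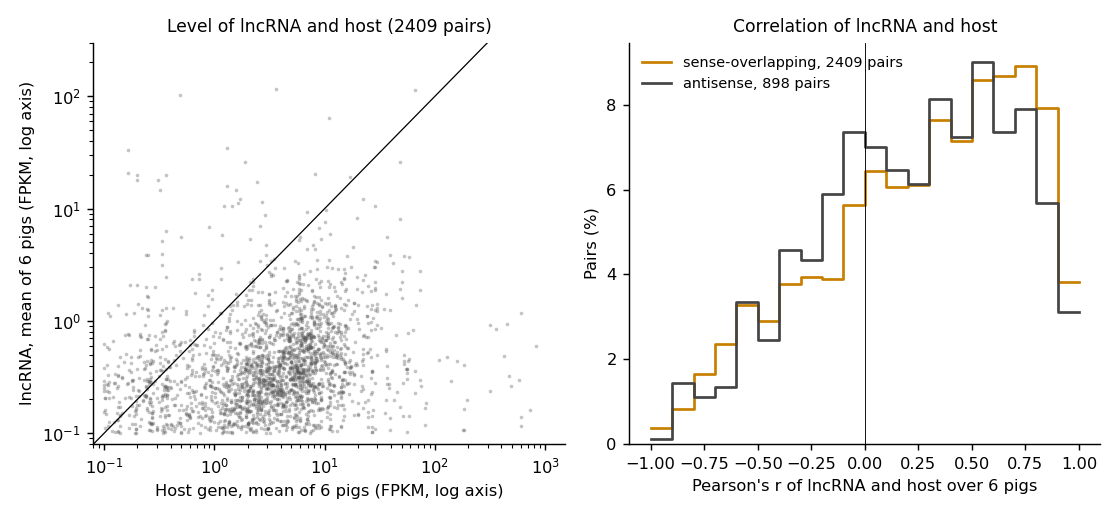
The left panel plots the mean FPKM of each of 2409 sense-overlapping lncRNAs against that of its host, both on log axes, with a line where they are equal, and the right panel the percentage of sense-overlapping and antisense pairs by Pearson's r over the 6 pigs. Most points lie below the line, and 232 lie above it, while lncRNAs with a host under 0.1 FPKM are not drawn. Both curves have most of their pairs above 0.

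The S-H against S-L comparison asked which sense-overlapping lncRNAs differed between muscle rich and poor in IMF. Of the 2856 with a mean of at least 0.1 FPKM, 15 were higher and 8 lower in S-H, at an unadjusted p below 0.01 in limma and an absolute log2 difference of at least 1 on the log2(FPKM + 0.1) scale, which understates changes of low transcripts. These 23 are 0.805% of the lncRNAs tested, against 1.25% of all 40336 transcripts tested, so the lncRNAs were not called more often than transcripts at large. By direction the backgrounds were 0.751% higher and 0.496% lower. With an adjusted p below 0.05 there were 2, PBDC1-OT1 and C1orf74-OT7 (background 0.0843%), and at an unadjusted p below 0.05 there were 140 (4.90%, background 5.57%). All values of S-H lay above all of S-L for 180 lncRNAs (6.30%, background 8.0%) and below for 120 (4.20%, background 3.31%). The median log2 difference was 0.02 for the lncRNAs and 0.14 for all tested transcripts. The split of 15 against 8 turned to 13 against 17 with median-ratio size factors and to 13 against 19 with quantile normalization. The number lower in S-H was 19 without LW119, 13 without LW82, 13 without LW88 and 5 without LW70.

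PBDC1-OT1 (chrX:60888308-60890868, Sscrofa11.1), which ran past 1 end of PBDC1, was seen in S-H pigs alone. It had 4.91, 4.42 and 3.93 FPKM in LW63, LW70 and LW119 and was listed at 0 in all 3 S-L pigs, so that no fold is given (limma, adjusted p = 0.00909). Its host had 8.14, 5.80 and 4.55 FPKM in S-H and 5.05, 6.27 and 4.03 FPKM in S-L, and the groups overlapped. Nearly all of the host level came from PBDC1-203, an annotated transcript that starts beyond the lncRNA. Of the annotated transcripts that overlap PBDC1-OT1, one was at 1.91 FPKM in LW63 and listed at 0 in the other 5 pigs, and one was listed at 0 in all. Relative to the host, PBDC1-OT1 was called too (limma, adjusted p = 0.00678).

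C1orf74-OT7 (chr9:133231473-133278379) showed the opposite pattern. It was listed at 0 in all 3 S-H pigs and had 3.09, 4.21 and 3.17 FPKM in LW82, LW88 and LW90 (limma, adjusted p = 0.00967). Its span matched that of HSD11B1, the enzyme that turns inactive into active glucocorticoid, over nearly all of the joined length. C1orf74-OT6 had the same start and end, with 2.02 FPKM in LW70, 0.0757 FPKM in LW88 and 0.200 FPKM in LW90, and C1orf74-OT3, over most of the same stretch, had 5.51 FPKM in LW63 and 2.89 FPKM in LW119. Each was listed at 0 in the remaining pigs. Each pig thus had 1 main lncRNA over HSD11B1, OT3 or OT6 in S-H and OT7 in S-L, of which OT3 and OT6 were picked after their values were seen. Summed over all 8 lncRNAs of C1orf74, the level was 5.12 ± 1.39 FPKM in S-H and 6.50 ± 1.07 FPKM in S-L, with overlapping groups (SD, n = 3 each, exact permutation p = 0.2). This sum includes C1orf74-OT1 and C1orf74-OT2, with means of 1.73 and 0.335 FPKM, which lie outside HSD11B1. The main annotated transcript of HSD11B1 had 54.4, 24.9 and 26.8 FPKM in S-H and 33.0, 49.3 and 36.7 FPKM in S-L, which overlapped. PBDC1-OT1 and C1orf74-OT7 stayed called in all 10 other settings tried and without any 1 of the 6 pigs.

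KLB-OT1 and LGALS12-OT1 were higher in S-H, and the values of their hosts did not overlap between the groups either. KLB was in the list of lipid genes and LGALS12 was in no list. KLB-OT1 (chr8:30624920-30691576) covered KLB, the co-receptor beta-klotho of endocrine fibroblast growth factors, and had 3.40, 1.94 and 2.76 FPKM in S-H and 0.551, 0.549 and 0 FPKM in S-L. All S-H pigs lay above all S-L pigs, with a log2 difference of 2.97 ± 0.79 (SE, limma, adjusted p = 0.748). KLB itself had 4.86, 2.31 and 3.64 FPKM in S-H and 0.442, 0.396 and 0.349 FPKM in S-L, and the difference of the lncRNA relative to the host was 0.13 ± 0.72 (SE) on the log2 scale. The call was lost without any 1 of the S-H pigs LW63, LW70 and LW119.

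LGALS12-OT1 ran past 1 end of LGALS12, galectin-12 of adipocytes. It shared 0.065 of the joined length with LGALS12 and 0.579 with PLAAT3, a phospholipase of adipose tissue. The annotated transcripts of PLAAT3 were at a mean of 0.106 FPKM. Its assembled transcripts TCONS_00142030, TCONS_00142031 and TCONS_00142032, which that level leaves out, had means of 0.976, 4.55 and 5.50 FPKM. The lncRNA had 1.39, 0.645 and 0.277 FPKM in S-H and 0, 0 and 0.0461 FPKM in S-L. The groups did not overlap, with a log2 difference of 2.72 ± 0.63 (SE, limma, adjusted p = 0.569). LGALS12 had 2.90, 0.910 and 1.69 FPKM in S-H and 0.228, 0.0491 and 0 FPKM in S-L. The call was lost without LW63, LW70, LW82 or LW88. The summed adipocyte markers were 1412, 812 and 519 FPKM in LW63, LW70 and LW119 and 468, 357 and 376 FPKM in LW82, LW88 and LW90. Of the 8, 6 did not overlap between the groups, and none was at 0 in any pig. Their part in the differences of KLB-OT1 and LGALS12-OT1 was not tested.

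Of the 23 called lncRNAs, 19 had a host whose log2 difference was below 1 in size. ENSSSCG00000041481-OT1 (chr6:44970433-44981101), whose host has the symbol DMKN, a secreted protein of the epidermis, in the reference table, had 0.807, 0.771 and 0.703 FPKM in S-H and was listed at 0 in S-L. Its adjusted p was 0.115 (limma), the third lowest, and the call held without any 1 pig. Its span shared 0.715 of the joined length with GAPDHS, at a mean of 0.00633 FPKM, and 0.199 with the host. It also overlapped TMEM147, whose highest annotated transcript had a mean of 87.1 FPKM. TCONS_00228536, an assembled transcript with the same start and end, was picked after its values were seen. It had 0.167, 0.339 and 0.583 FPKM in S-H and 0.353, 0 and 0.390 FPKM in S-L, so the groups overlapped. ORC4-OT1, over a subunit of the origin recognition complex, had 0.175, 0.723 and 2.14 FPKM in S-H and 0.0242, 0 and 0 FPKM in S-L (log2 difference 2.89, limma, adjusted p = 0.782). It was called only with all pigs or without LW63, and ORC4 itself ranged from 13.81 to 17.997 FPKM over all 6.

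Lower in S-H were BACH2-OT2, MIXL1-OT1, ENSSSCG00000044211-OT1 and GPR161-OT3. BACH2-OT2, over a transcriptional repressor of lymphocytes, had 0.00128, 0 and 0.00971 FPKM in S-H and 0.326, 0.295 and 1.29 FPKM in S-L (log2 difference -2.57, limma, adjusted p = 0.653). It lost its call without LW63, LW70, LW119 or LW90. MIXL1-OT1, over a homeobox gene of the early embryo, was listed at 0 in S-H and had 0.317, 0.332 and 0.467 FPKM in S-L, and lost its call without LW90 (limma, adjusted p = 0.437). MIXL1 itself was listed at 0 in 5 pigs, and the lncRNA also overlapped LIN9, a subunit of a cell cycle regulator complex. ENSSSCG00000044211-OT1, over DESI2, was listed at 0 in S-H and had 0.250, 0.482 and 0.448 FPKM in S-L (limma, adjusted p = 0.459), and lost its call without LW88 or LW90.

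GPR161-OT3 had 0.114, 0.102 and 0.0687 FPKM in S-H and 1.17, 0.459 and 0.534 FPKM in S-L (log2 difference -1.98, limma, adjusted p = 0.684). The groups did not overlap, and the call held only with all pigs or without LW88. Its host GPR161, a receptor that acts on hedgehog signalling, ranged from 0.161 to 0.314 FPKM. The lncRNA lay over DCAF6, a substrate receptor of a ubiquitin ligase, whose own annotated transcripts took each other's place: DCAF6-203 had 0, 0, 10.1, 47.0, 0 and 62.6 FPKM in LW63, LW70, LW119, LW82, LW88 and LW90. DCAF6-206 had 73.7, 85.2, 27.1, 0, 63.3 and 1.71 FPKM in the same order, high where DCAF6-203 was low. Summed over all 6 lncRNAs of GPR161, the level was 6.98 ± 1.18 FPKM in S-H and 6.88 ± 1.52 FPKM in S-L. The groups overlapped (SD, n = 3 each, exact permutation p = 0.9). GPR161-OT2, with the same start and end as GPR161-OT3, had 3.39, 3.58 and 3.01 FPKM in S-H and 4.12, 2.24 and 6.66 FPKM in S-L. It was picked after its values were seen.

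The remaining 11 called lncRNAs, most of them outside the rule for naming, were higher in S-H at ENSSSCG00000041364 (OT10 and OT16), YIPF1, WDR37, ENSSSCG00000032903, MEIS2, MARK1, CTBP2 and ENSSSCG00000001456, and lower at ENSSSCG00000027903 and PDCD4, besides SMC3-OT2 and AP2A2-OT2 described further on. Their log2 differences ran from 1.16 to 2.52 upwards, and were -1.59 for ENSSSCG00000027903-OT5 and -1.93 for PDCD4-OT1. MEIS2-OT1, at a homeobox transcription factor, had 0.282, 0.189 and 0.576 FPKM in S-H and 0.0201, 0 and 0 FPKM in S-L. ENSSSCG00000001456-OT1, which also overlapped the major histocompatibility gene SLA-DQB1, had 4.38, 4.26 and 3.89 FPKM in S-H and 1.25, 2.31 and 2.03 FPKM in S-L, and its reads are uncertain because genes of this family are alike. MEIS2-OT1, CTBP2-OT4 and ENSSSCG00000001456-OT1 lost their calls whichever pig was left out, where a test could still be made.

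**Figure D4:**
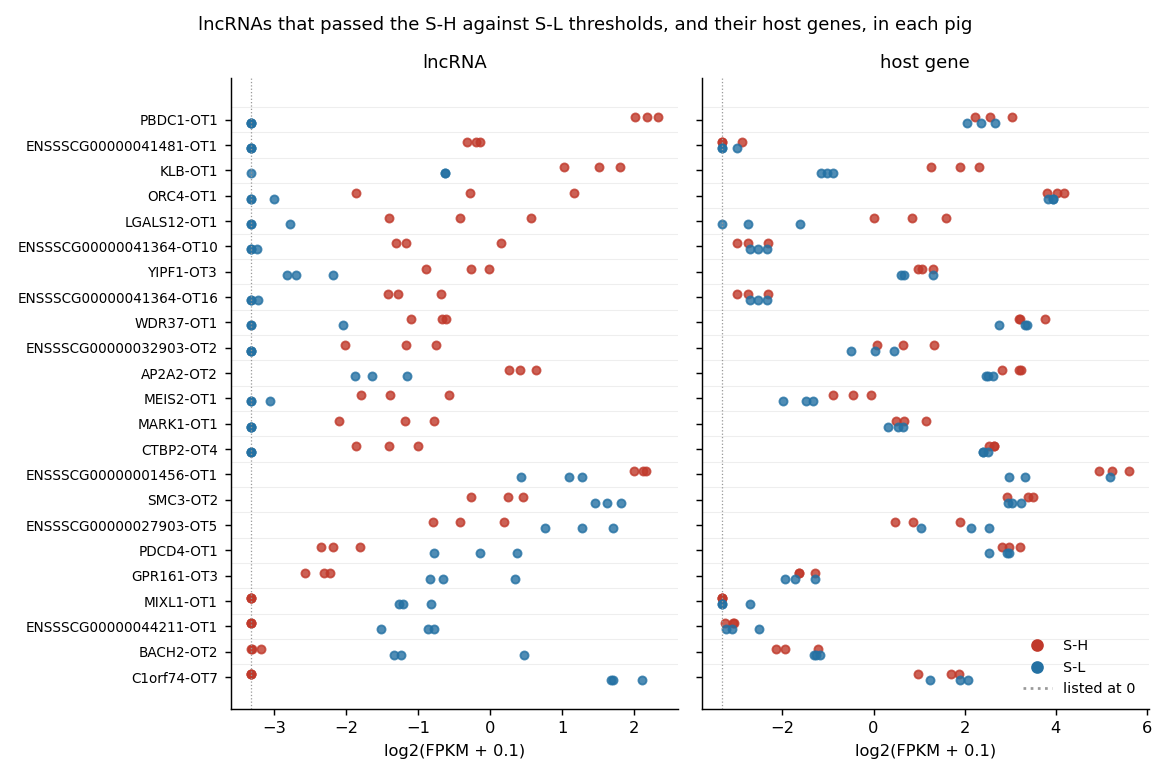
The left panel plots log2(FPKM + 0.1) of each of the 23 called lncRNAs in each pig, S-H in red and S-L in blue, and the right panel the same for its host, with a dotted line where a value is listed at 0. The groups are apart in every row on the left, while on the right they are apart for KLB, LGALS12, MEIS2, AP2A2 and CTBP2 and overlap in the other rows.

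Relative to the host, 29 of 2409 lncRNAs were called, 11 higher and 18 lower in S-H. That is 1.20%, against 1.3% of all 3307 sense-overlapping and antisense pairs (0.484% higher and 0.816% lower). Of the 29, 10 were also called by level, and in 9 the host itself differed by over 1 on the log2 scale. The median log2 change relative to the host was -0.13. With an adjusted p below 0.05 there were 2, PBDC1-OT1 and C1orf74-OT7 (background 0.0605%).

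SMC3, a subunit of the cohesin ring, carried 2 lncRNAs that ran on to RBM20, a splicing factor of titin, and both were lower in S-H relative to the host. SMC3-OT1 had 0, 0 and 1.09 FPKM in S-H and 1.99, 1.83 and 1.41 FPKM in S-L (relative log2 change -3.21, limma, adjusted p = 0.719). SMC3-OT2, picked after its values were seen, had 0.735, 1.27 and 1.09 FPKM in S-H and 2.97, 2.64 and 3.44 FPKM in S-L (log2 difference in level -1.49, limma, adjusted p = 0.540). Neither set of values overlapped between the groups. Their sum was 1.39 ± 0.729 FPKM in S-H and 4.76 ± 0.260 FPKM in S-L (SD, n = 3 each, exact permutation p = 0.10, the smallest possible). SMC3 had 10.38, 7.53 and 11.14 FPKM in S-H and 9.24, 8.06 and 7.601 FPKM in S-L, with overlap. The annotated transcript of RBM20 had 4.499, 4.087 and 3.965 FPKM in S-H and 5.470, 9.054 and 7.490 FPKM in S-L. An assembled transcript of RBM20, TCONS_00091019, had 0, 0.209 and 0.735 FPKM in S-H and 1.203, 2.629 and 2.340 FPKM in S-L. Both RBM20 transcripts were lower in S-H without overlap, like the 2 lncRNAs, and were picked after their values were seen. The lncRNAs were not tested relative to RBM20. The relative call of SMC3-OT1 held only with all pigs or without LW119, and the level call of SMC3-OT2 was lost without LW63, LW82 or LW90.

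In 2 further cases among the largest relative changes, the log2 differences of lncRNA and host had opposite signs. ENSSSCG00000007336-OT2 was listed at 0 in 4 pigs, with 0.0810 FPKM in LW82 and 0.595 FPKM in LW88, while its host had 2.52, 0.708 and 2.38 FPKM in S-H and 1.21, 0.127 and 0 FPKM in S-L (relative log2 change -3.71, limma, adjusted p = 0.739). FAM168A-OT2 had 0.264, 0 and 0.877 FPKM in S-H and 0, 0.137 and 0 FPKM in S-L, and its host 0.115, 0.114 and 0.0603 FPKM in S-H and 0.472, 0.972 and 0.279 FPKM in S-L (relative log2 change 2.96, limma, adjusted p = 0.739). In both the lncRNA itself overlapped between the groups, and so did the host of ENSSSCG00000007336-OT2, while FAM168A did not. The relative call of FAM168A-OT2 held in 0 of 4 other settings and in 1 of 5 fits that left out a pig. That of ENSSSCG00000007336-OT2 held in 2 of 4 and in 2 of 5. The log2 difference was -1.22 for ENSSSCG00000007336-OT2 and 2.49 for its host, and 1.302 for FAM168A-OT2 and -1.66 for its host. ORC4-OT1 had the remaining change among the 3 largest upwards, 2.79.

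At 1 host 2 lncRNAs with the same start differed in opposite directions, a case picked after its values were seen. AP2A2-OT2, at a subunit of the clathrin adaptor complex, had 1.45, 1.23 and 1.10 FPKM in S-H and 0.220, 0.173 and 0.351 FPKM in S-L (log2 difference 1.99, limma, adjusted p = 0.401). AP2A2-OT3 had 0.355, 0.233 and 0.411 FPKM in S-H and 0.866, 1.065 and 0.454 FPKM in S-L (log2 difference -1.004, limma, adjusted p = 0.848). Neither overlapped between the groups, and both start at base 580173 of chromosome 2. The call of AP2A2-OT2 held without any 1 pig, while AP2A2-OT3 was called relative to the host alone. That relative call held in 0 of 4 other settings and in 1 of 6 fits that left out a pig.

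At a few loci, picked after the data were seen, transcripts took each other's place from pig to pig. At TAF5, a subunit of the general transcription factor TFIID, 3 assembled transcripts ended at the same base over 1 end of ATP5MD, a subunit of the ATP synthase. TAF5-OT2 reached 23.2 FPKM in LW70, and all other pigs had a listed value of 0. TAF5-OT3 had 14.1 FPKM in LW82 and 14.4 FPKM in LW88 and at most 0.0410 FPKM elsewhere. TCONS_00090819, an assembled transcript with no lncRNA name, had 10.8, 9.99 and 9.70 FPKM in LW63, LW119 and LW90 and at most 0.0996 FPKM elsewhere. Every pig thus had 1 main transcript of the 3. Their sum was 10.9, 23.3 and 9.99 FPKM in S-H and 14.2, 14.5 and 9.71 FPKM in S-L, a coefficient of variation of 37.1%, against 116% for TAF5-OT2 and TAF5-OT3 together.

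Over 1750 pairs of lncRNAs of the same host, r over the 6 pigs had a median of 0.29, 34.1% were below 0 and 45 (2.57%) were below -0.8. In 528 hosts with at least 2 lncRNAs of at least 0.1 FPKM, the coefficient of variation had a median of 69.9% for single lncRNAs and of 45.6% for their sum, and the sum was lower in 504. Summing alone lowers a coefficient of variation, and how much of this came from it was not tested.

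**Figure D5:**
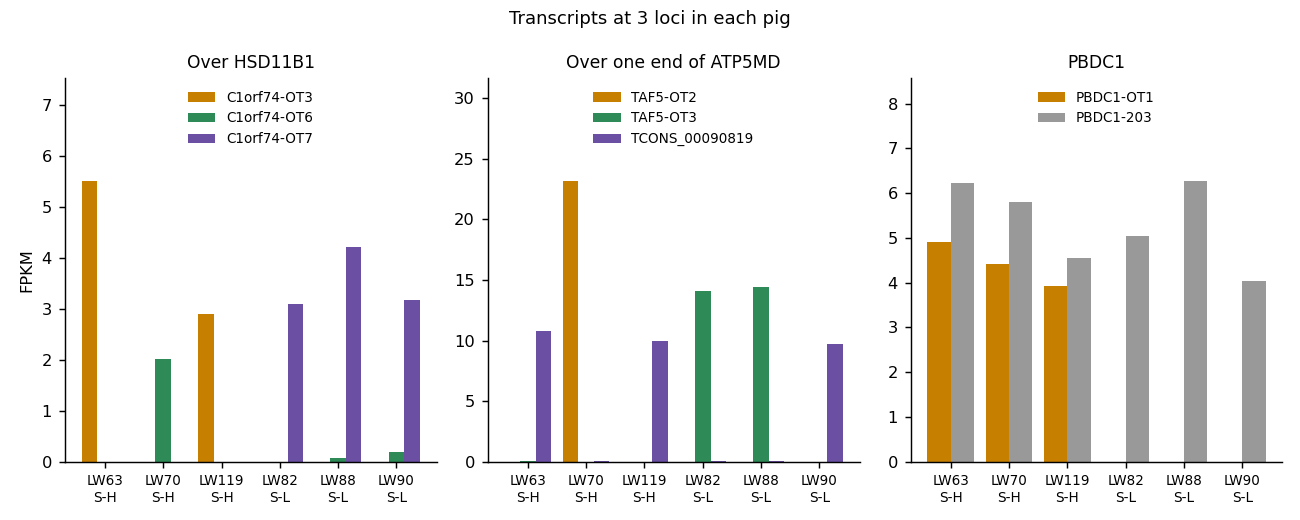
Bars give the FPKM of each transcript in each pig over HSD11B1 (C1orf74-OT3, OT6 and OT7), over one end of ATP5MD (TAF5-OT2, TAF5-OT3 and TCONS_00090819) and at PBDC1 (PBDC1-OT1 and the annotated PBDC1-203). At the first 2 loci each pig has 1 tall bar, while at PBDC1 the lncRNA is at 0 in the S-L pigs and PBDC1-203 is present in all 6.

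Hosts grouped by role showed which muscle genes carried such lncRNAs. The counts are descriptions, and the lists were chosen with earlier results of these data known. Of all tested transcripts 1.25% were called by level and of the lncRNAs 0.805%, a share at which even the largest list, of 42, would hold less than 1 call. Of genes of the sarcomere and Z-disc, 5 hosts carried 10 lncRNAs, of which 8 had a mean of at least 0.1 FPKM and none was called. The highest was PDLIM5-OT2, over a Z-disc adaptor protein, at 5.69, 6.31 and 13.8 FPKM in S-H and 22.4, 4.93 and 9.63 FPKM in S-L. The S-L pigs held both the highest and the lowest value. PDLIM5 itself was at 28.4 FPKM. Calcium handling genes gave 6 lncRNAs, 4 of them testable and none called, and the highest was CAPN2-OT1, over a calpain protease, at 0.560 FPKM against 25.9 FPKM of CAPN2. Glycolysis genes gave 2, 1 testable and not called: TPI1-OT1 was at 0.597 FPKM over triosephosphate isomerase at 830 FPKM, a mean log2 ratio of -10.21.

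Mitochondrial genes gave 10 lncRNAs, all testable and none called. PPARGC1A-OT1, over the master coactivator of mitochondrial biogenesis, was the highest of them, at 0.378, 0.114 and 0.280 FPKM in S-H and 0.788, 8.91 and 1.73 FPKM in S-L. The S-L pigs were all above the S-H pigs, and LW88 stood far above the rest, with a log2 difference of -2.85 (limma, adjusted p = 0.848). Lipid genes, which include PPARGC1A too, gave 21, of which 17 were testable and 1 was called, KLB-OT1. Extracellular matrix genes gave 7, of which 5 were testable and none was called, and the highest was COL5A2-OT1, over a fibrillar collagen chain, at 1.43 FPKM.

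Insulin, IGF and TGF-beta signalling genes gave 21 lncRNAs, 16 testable and none called by level, led by TGFB2-OT1, over a TGF-beta ligand, at 5.38 FPKM. Relative to the host 1 of them was called, TGFB3-OT1, with 0.828, 0.574 and 0.565 FPKM in S-H and 0.269, 0.328 and 0.133 FPKM in S-L. Its relative log2 change was 1.81 (limma, adjusted p = 0.719), and 1.20% of all lncRNAs tested relative to the host were called. TGFB3-OT1 ran past 1 end of TGFB3 and also overlapped IFT43. The relative call held in 3 of 4 other settings and in 2 of 6 fits that left out a pig. Transcription factors of muscle and fat cells gave 28, of which 27 were testable and none was called by level, with a median r to the host of 0.49, and 1, SOX6-OT3, was called relative to the host. The highest, NFIB-OT2, over a nuclear factor I gene, had 15.6, 12.2 and 19.6 FPKM in S-H and was listed at 0 in LW82 and LW88 and at 10.38 FPKM in LW90. The groups did not overlap, and its log2 difference was 5.05 (limma, adjusted p = 0.848). Protein turnover genes gave 17, all testable and none called. FBXO32-OT1, over atrogin-1, a ubiquitin ligase subunit of muscle atrophy, was the highest at 26.3, 17.8 and 14.3 FPKM in S-H and 22.7, 21.9 and 19.002 FPKM in S-L. It matched its host over 0.98 and was above it, with the annotated transcripts at 8.10 FPKM.

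RNA processing genes gave 9 lncRNAs, all testable and none called, with LUC7L2-OT1, over a splicing factor, highest at 1.27 FPKM. Chromatin regulators gave the most, 42 on 24 hosts, all testable and none called. Of these 36 were above 0 in all 6 pigs, and their median r to the host was 0.60, against 0.34 over all 2409 pairs. HDAC9-OT2, over a histone deacetylase expressed in muscle, was the highest at 1.58 FPKM.

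The host with the most lncRNAs was ENSSSCG00000043817, in a region of interferon alpha genes on chr1:201292659-201506064 (Sscrofa11.1), with 26. Their means ran from 0 to 0.637 FPKM, 20 reached 0.1 FPKM and 11 were above 0 in all pigs. Their sum was 6.95, 5.39 and 6.59 FPKM in S-H and 13.9, 1.45 and 1.93 FPKM in S-L, where LW82 was the highest of all pigs and the other two the lowest. The host itself was listed at 0 in 5 pigs. ENSSSCG00000041364, on chromosome 7, carried 20, which summed to 12.4, 13.7 and 7.87 FPKM in S-H and 4.67, 11.9 and 11.6 FPKM in S-L (exact permutation p = 0.5). Of the 20, ENSSSCG00000041364-OT10 and OT16 were called higher in S-H. ENSSSCG00000041364-OT10 matched ENSSSCG00000001229, at a mean of 46.2 FPKM, over 0.973 of the joined length and its host, at 0.0661 FPKM, over 0.521, while OT16 matched the host best, over 0.998. OT10 had 1.01, 0.303 and 0.344 FPKM in S-H and 0, 0 and 0.00567 FPKM in S-L (limma, adjusted p = 0.543). TERF2IP, a telomere-binding protein, carried 12, none of which had a mean above 0.260 FPKM, against 11.6 to 17.5 FPKM of the gene.

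SOX6, a transcription factor that represses slow-fibre genes, carried 9 lncRNAs, all testable, and was looked at after its values were seen. They summed to 10.98, 10.6 and 11.5 FPKM in S-H and 22.2, 6.64 and 19.6 FPKM in S-L, where LW88 was the lowest of all pigs (exact permutation p = 0.4). SOX6-OT3 had 0.399, 1.22 and 0.662 FPKM in S-H and 6.01, 1.48 and 5.73 FPKM in S-L, without overlap (relative log2 change -2.23, limma, adjusted p = 0.719), while SOX6 ranged from 2.87 to 8.35 FPKM with overlapping groups. The relative call held without any 1 pig and was lost with the host taken as its highest annotated transcript.

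The lncRNAs that the study singled out included 3 sense-overlapping ones, whose FPKM were all led by 1 pig, LW119. The study counted them as differentially expressed with edgeR, at a p value below 0.01 and an absolute log2 difference of at least 1. It described some of them as highly expressed. The limma adjusted p given below is a different measure. The study also measured some of them by RT-qPCR, which it reported to match its sequencing data. It proposed some as candidates that could affect IMF deposition through PCK1. Neither point was examined here. PDZD9-OT2, at a PDZ domain gene, was above 0 in LW119 alone. RAD51C-OT1, at a DNA repair gene, reached 0.505 FPKM there and at most 0.00802 FPKM elsewhere, and was below the level needed for the test. ENSSSCG00000016571-OT3 had 0.109, 0.180 and 2.76 FPKM in S-H and was listed at 0 in S-L, without overlap (limma, adjusted p = 0.848).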

How the data were processed

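Whole-transcriptome libraries of LD muscle from 6 pigs, 3 in S-H and 3 in S-L, were used. The authors aligned the reads with HISAT2 to Sus scrofa 11.1, assembled transcripts with StringTie, screened for lncRNAs of at least 200 nt and 2 exons, and deposited 1 table of FPKM per transcript and pig. From the values, 21104 Ensembl transcripts without a symbol appeared to have been deposited in TPM, which no source used here states. They were brought to FPKM with a factor per pig (0.639 to 0.847) derived from the table. The study gives the reads of each library, but the table holds no counts per transcript, so no counting interval is given.

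The host level was the sum of its annotated transcripts. Differences were tested with limma 3.58.1 (R 4.3.3, variance trend) on log2(FPKM + 0.1), over all 40336 transcripts that averaged 0.1 FPKM or more, and relative to the host over 3307 lncRNA and host pairs, with Benjamini-Hochberg adjustment over each whole table. Calls took p below 0.01, unadjusted, with an absolute log2 difference of 1 or more. Values per pig were compared by exact permutation or exact sign flips (Python 3.11.15, numpy 2.4.6, pandas 2.3.3, scipy 1.17.1). The model was tested on simulated data before use.

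Named lncRNAs were the 5 highest, the 5 largest called differences in each direction without overlap, the highest and every called lncRNA of each host list, the 3 highest ratios to the host, the 3 hosts with most lncRNAs, the 3 largest called changes each way relative to the host, and 3 that the study names. Others were picked after their values were seen, as the text says. The lncRNAs, lists and markers were chosen with earlier results of these data known. The host lists were sarcomere and Z-disc, calcium handling, glycolysis, mitochondrial metabolism, lipid, extracellular matrix, insulin, IGF and TGF-beta signalling, transcription factors, protein turnover, RNA processing and chromatin. Comparisons with a second overlapped gene and sums over the lncRNAs of a host were added after the data had been seen. Alternatives were other pseudocounts, minimum levels, scalings, variance models, host definitions, the named lncRNAs alone and leaving out each pig.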

Additional observations from a re-analysis of the deposited data

How the results depend on the processing

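PBDC1-OT1 and C1orf74-OT7 kept their calls under every setting tried, and no result of the named lncRNAs changed direction as a called value. The number called (23, of which 15 higher and 8 lower in S-H) fell to 3 (2 and 1) with a pseudocount of 1, to 4 (2 and 2) with a mean of at least 1 FPKM and to 2 (1 and 1) at an adjusted p below 0.05, and was 45 (24 and 21) with the named lncRNAs fitted alone. The number lower was 17 with size factors and 19 with quantile normalization, and the number higher 24 without a variance trend. The median log2 difference was 0.14 in TPM and -0.10 with quantile normalization. Without 1 pig, the called ran from 17 to 33, higher from 12 to 18, lower from 5 to 19 and the median from -0.10 to 0.19. Size factors moved the median of all transcripts from 0.14 to 0.02, and the lncRNAs stayed below it by 0.10.

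Relative to the host, the 29 called (11 higher, 18 lower) became 9 (2 and 7) with a mean of at least 1 FPKM and 2 (1 and 1) at an adjusted p below 0.05, and 17 were higher with a pseudocount of 0.01. Without 1 pig they ran from 22 to 35, higher from 6 to 15, lower from 11 to 25 and the median from -0.229 to -0.0333. The lncRNAs detected in 1 pig numbered 400 at 0.1 FPKM and 119 with 1 lncRNA per host, and those in all S-L and no S-H pigs 7 with 1 per host. The share of the locus was 11.9% with the host as its top transcript and 17.8% for a mean of at least 1 FPKM, and 8.206% to 8.73% without 1 pig. The median r was 0.24 with the top transcript, 0.49 for a mean of at least 1 FPKM, 0.31 as Spearman's rho, 0.24 with size factors and 0.33 to 0.38 without 1 pig. The cause of these changes was not tested.

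No paired analysis was possible because the groups hold different animals and the labels name single pigs and number no replicates. Without counts per transcript, a value of 0 cannot be told from a low level. Levels of hosts and second genes without a symbol rest on the conversion from TPM.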
